A study of Mus musculus with 6 samples.

Results

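The genes described are chemokines and inflammatory cytokines of mouse liver tumours. They were taken as every gene whose symbol was Ccl or Cxcl followed by a number, without Ccl5, Cxcl9 and Cxcl10, together with Cx3cl1, Il1a, Il1b, Il18, Il33, Il11, Tnf, Tgfb1, Tgfb2, Csf1, Csf2, Csf3 and Vegfa. The rule matched 55 of the 39179 genes listed, 43 chemokine and 12 cytokine genes, under 49 distinct symbols, since second copies of Ccl19, Ccl21 and Ccl27 genes are listed separately. Among them, 44 were seen with at least 1 read, and 26 were abundant enough to be tested.

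The tumours arose in wildtype C57BL/6 mice after hydrodynamic injection, a rapid tail vein injection that carries DNA into hepatocytes. Both groups received transposons, which insert into the genome, encoding the transcription factor Myc. In the Myc/NrasG12V group the second transposon encoded NrasG12V, the small GTPase Nras locked in its active state, and in the Myc/Akt1 group it encoded Akt1, a kinase of the growth factor and insulin pathway. Each group had 3 poly(A) RNA-seq libraries of bulk tumour tissue, and the comparison asked how the mRNA of tumours with these driver pairs differed. Age, sex, the promoters of the transposons and whether each library is its own mouse are not stated in the labels, and the p-values therefore cover only the spread among these libraries, which may be technical. All levels are CPM, a read count made comparable between libraries by dividing it by the library's total, and means are given ± SD (n = 3 libraries a group). The libraries held 17881282 to 27865094 reads, so a gene with no read could still be at 0.108 to 0.168 CPM (3 reads, counting error only). Nras was 3.05-fold higher in Myc/NrasG12V, Akt1 was 4.30-fold higher in Myc/Akt1, and Myc was at 153 ± 29.4 and 154 ± 55.0 CPM. Principal component 2, with 11.6% of the variance, separated Myc/NrasG12V replicate 3 from its other two libraries.

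Chemokines are small secreted proteins that draw leukocytes along a gradient by binding receptors of the G protein-coupled class. CXC chemokines with a glutamate-leucine-arginine motif bind CXCR2 and recruit neutrophils, CCL2 and its relatives act on monocytes, and CXCL12 binds CXCR4 and retains many kinds of cell in tissues. Interleukin 1 and TNF switch on many of these genes through the transcription factor NF-kB. In bulk tissue, a gene can be lower through fewer cells of a type or through less RNA per cell, and these data cannot tell the 2 apart.

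Scaling bears on the counts over all genes tested. On CPM, 1437 genes were called in favour of Myc/NrasG12V and 4240 in favour of Myc/Akt1, but 2331 and 2565 with TMM factors. Those factors moved the median log2 difference of all genes from -0.26 to 0.005. Of the 26 tested genes, 9 were higher in the Myc/NrasG12V tumours, 2 in the Myc/Akt1 tumours and 15 did not pass the test, which was limma on log2(CPM + 1) with a Benjamini-Hochberg adjusted p under 0.05 over all 14365 genes tested. Over all genes tested, 10.0% were called in favour of Myc/NrasG12V and 29.5% in favour of Myc/Akt1, or 39.5% in either direction, against 34.6%, 7.69% and 42.3% of these 26. Their median log2 difference was 0.28, beside -0.26 over all genes tested. By rank alone, 13 of the 26 had groups that did not overlap (52.7% of all genes tested), 9 with Myc/NrasG12V above (14.8%) and 4 with Myc/Akt1 above (38.0%). Genes that reach the level for testing through the group where they are high had to differ, so these shares are a description. Of the genes called, Cxcl17, Ccl8, Il1b, Cxcl2 and Ccl24 did not reach that level in the Myc/Akt1 libraries alone. With no filter beyond 1 read, all of these but Cxcl2 were still called (limma adjusted p = 0.0727 for Cxcl2). Higher in Myc/NrasG12V were Cxcl17, Ccl8, Cxcl1, Il1b, Cxcl11, Ccl6, Cxcl16, Ccl24 and Cxcl2. Higher in Myc/Akt1 were Cxcl12 and Ccl2. Without Myc/NrasG12V replicate 1, or without Myc/Akt1 replicate 1 or 2, only 5 were higher in Myc/NrasG12V, and without Myc/NrasG12V replicate 1 the number higher in Myc/Akt1 was 4. The same 2 genes were the only ones called higher in Myc/Akt1 without Myc/NrasG12V replicate 3, when 10 were higher in Myc/NrasG12V. Over all genes tested, too, fewer were called in both directions with any 1 library left out other than Myc/NrasG12V replicate 3. The fewest were 966 and 2890, without Myc/Akt1 replicate 1, so losing a call this way is not particular to these genes. Counts of gene lists given below are also to be read beside the shares over all genes tested, 10.0% higher and 29.5% lower in Myc/NrasG12V.

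**Figure D1:**
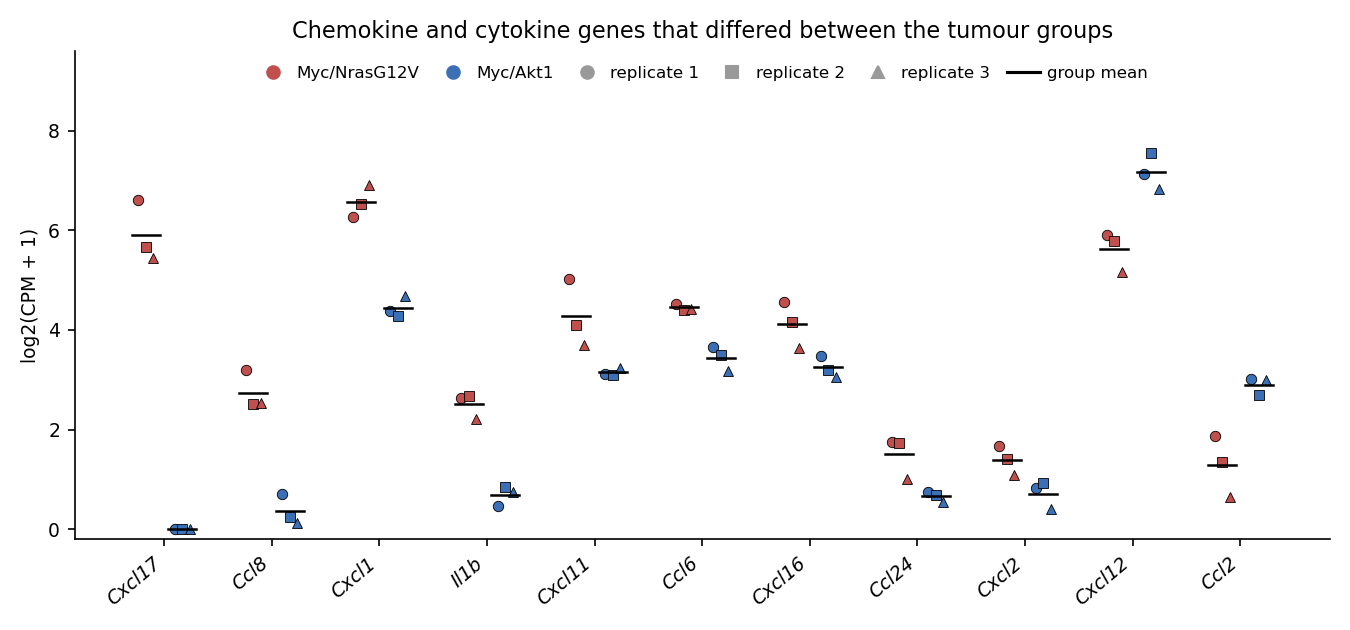
Level of the 11 genes that differed, in each library. The y axis is log2(CPM + 1), points are libraries with the shape giving the replicate, black lines are group means of the plotted values, and for every gene all 3 libraries of one group lie above all 3 of the other.

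The CXCR2 ligands Cxcl1, Cxcl2 and Cxcl3 lie near each other on chromosome 5, and the bases just before their start sites are shown because the 3 genes had the same direction of difference and carry the same stretch of letters there. The sequences are from RefSeq, build GRCm38.p6, on the plus strand, read 5′ to 3′, and each holds the 120 bases that end just before the start of the RefSeq gene. Capitals mark matches to the NF-kB consensus on either strand, 2 overlapping matches that together span 11 bases.
Cxcl1, chr5:90891125-90891244: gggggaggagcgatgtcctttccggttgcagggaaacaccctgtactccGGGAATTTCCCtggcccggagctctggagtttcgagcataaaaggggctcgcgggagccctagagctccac
Cxcl2, chr5:90903779-90903898: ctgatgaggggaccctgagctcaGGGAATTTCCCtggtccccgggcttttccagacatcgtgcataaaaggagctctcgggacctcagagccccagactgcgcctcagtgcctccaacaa
Cxcl3, chr5:90785981-90786100: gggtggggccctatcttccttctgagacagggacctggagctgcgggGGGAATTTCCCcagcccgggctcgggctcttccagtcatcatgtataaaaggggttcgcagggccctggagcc
The capital stretch began 71 bases before the RefSeq start in Cxcl1, 97 bases before it in Cxcl2 and 73 bases before it in Cxcl3. These spacings depend on the annotation. In GENCODE M21, used for the other positions, Cxcl1 starts at 90891241, Cxcl2 at 90903871 and Cxcl3 at 90786103. The printed bases of Cxcl1 and Cxcl2 run past those starts. These 11 letters were taken from the Cxcl1 window itself, so the match in Cxcl1 was fixed in advance and their rarity is a description. They were found in 14 of 32851 promoter windows of RefSeq, or 0.0426%, with the windows of these 3 genes among them. A window runs from 250 bases before to 50 bases after a start. The NF-kB consensus in general matched 4.51% of all windows. Windows were at hand for 35 of the 49 symbols. Besides these 3, the consensus was found for Ccl27a, Ccl9, Csf1 and Vegfa, which were not called, and for Ccl20, which was not tested. It was not found in the windows of Il1b, Ccl8, Ccl6 or Cxcl12, which differed between the groups. The AP-1 letters TGANTCA (7.81% of all windows, both strands) were found for Ccl9, Il1a, Il11, Ccl27a, Ccl27b and Ccl28. A match is a description of the letters and not a measured binding site.

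The neutrophil-recruiting chemokines Cxcl1 and Cxcl2 were higher in Myc/NrasG12V. Cxcl1 (ENSMUSG00000029380, chromosome 5, 90891241 to 90893115, GRCm38 as for all positions given) was at 75.7, 90.6 and 119 CPM in Myc/NrasG12V replicates 1, 2 and 3, and at 19.9, 18.5 and 24.6 CPM in Myc/Akt1 replicates 1, 2 and 3. All Myc/NrasG12V libraries lay above all Myc/Akt1 libraries, by a wide margin. Its mean was 4.52-fold higher, and the log2 difference was 2.11 with a standard error of 0.21 (limma adjusted p = 2.13e-04). Cxcl2, a close paralog, was at 2.20, 1.65 and 1.12 CPM against 0.764, 0.897 and 0.318 CPM. It was 2.51-fold higher (limma adjusted p = 0.0467), and that call ended in 9 of 16 alternatives, among them every setting that left out 1 library except Myc/NrasG12V replicate 3. Cxcl3 had 22 reads over the Myc/NrasG12V group and 3 over the Myc/Akt1 group, too few to be tested. Its levels were 0.334, 0.367 and 0.391 CPM against 0.0424, 0 and 0.0909 CPM, and the groups did not overlap. Cxcl5 had 12 and 3 reads. Cxcl1 thus made up nearly all of the summed level of these 4 ligands, which was 78.5, 92.7 and 120.3 CPM in Myc/NrasG12V and 20.8, 19.4 and 25.0 CPM in Myc/Akt1.

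The receptor of these ligands was measured as well. Cxcr2, found mainly on neutrophils, was at 0.860, 1.93 and 3.08 CPM in Myc/NrasG12V against 0.297, 0.251 and 0.0909 CPM, or 9.18-fold higher (limma adjusted p = 0.00961). Csf3r, the receptor of the granulocyte growth factor, was 5.12-fold higher with 10.1 ± 1.67 and 1.97 ± 0.282 CPM (limma adjusted p = 4.61e-04), while its ligand Csf3 had 1 read in each group. Neutrophil markers moved with these genes. Of 14 listed, among them Cxcr2 and Csf3r, 12 were tested, 10 were higher in Myc/NrasG12V and 0 lower, and their summed level ran from 37.0 to 226 CPM in Myc/NrasG12V and from 4.27 to 5.18 CPM in Myc/Akt1. The highest marker sum, that of Myc/NrasG12V replicate 3, fell in the library with the highest Cxcl1. The same library had the lowest Cxcl2 of the Myc/NrasG12V group (1.12 CPM). Among the markers, Ly6g was near 0 in both groups. The part of these cells in the chemokine differences was not tested.

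**Figure D2:**
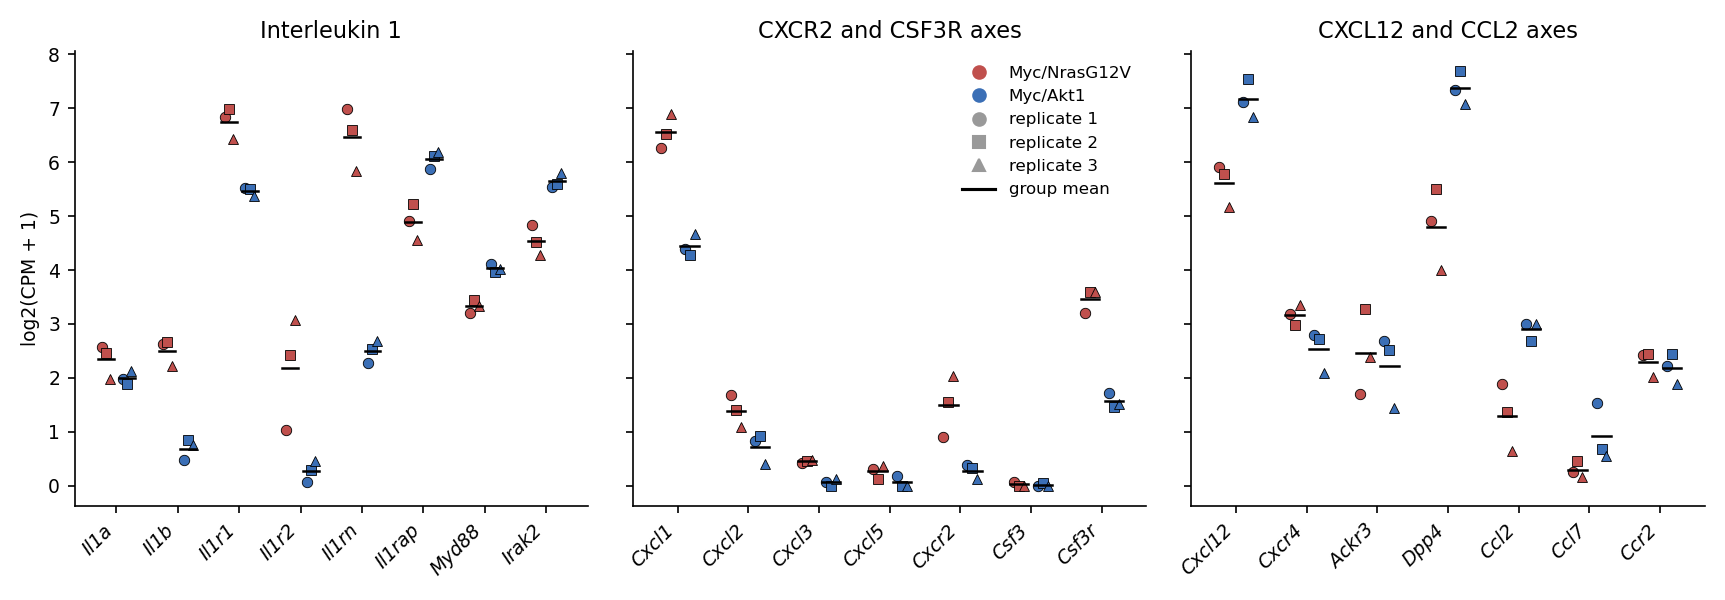
Levels of ligands beside their receptors and regulators. The y axes are log2(CPM + 1) on a common scale, points are libraries with the shape giving the replicate, and black lines are group means; Cxcl1, Cxcr2 and Csf3r sit higher in Myc/NrasG12V, while Cxcl12, Dpp4 and Ccl2 sit higher in Myc/Akt1.

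Cxcl17 showed the widest gap. It encodes a mucosal chemokine of epithelial tissues (ENSMUSG00000060188, chromosome 7, 25400053 to 25412886). Its levels were 97.0, 49.4 and 42.4 CPM in Myc/NrasG12V, or 3866 reads over the group, and all 3 Myc/Akt1 libraries had 0 reads. Pooled over each group and with 3 reads set for the empty one, the difference was at least 1562-fold (limma adjusted p = 2.13e-05 on the log2(CPM + 1) scale). Cholangiocyte markers, of which 1 of 6 tested was higher in Myc/NrasG12V and 0 lower, summed to 438 to 979 CPM and 142 to 275 CPM, with the highest sum in the library of the highest Cxcl17, and their part was not tested. Per kilobase of exon Cxcl17 was the most abundant of all 55 genes in Myc/NrasG12V, at 82.7 ± 39.0 CPM per kilobase, followed by Cxcl1 at 50.6 ± 11.6 CPM per kilobase. These neighbours in the order overlapped within their spread. In Myc/Akt1 the order was led by Ccl9 at 25.2 ± 9.77, Vegfa at 24.1 ± 7.19, Cxcl12 at 17.8 ± 4.50 and Cxcl1 at 11.2 ± 1.70 CPM per kilobase, of which the first 3 overlapped.

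Cxcl12 went the other way. This chemokine is made by stromal and endothelial cells in many organs (ENSMUSG00000061353, chromosome 6, 117168535 to 117181367). It was at 58.9, 54.3 and 34.8 CPM in Myc/NrasG12V and at 138, 185 and 113 CPM in Myc/Akt1, so that every Myc/Akt1 library lay above every Myc/NrasG12V library. The mean was 2.95-fold higher in Myc/Akt1, with a log2 difference of -1.55 and a standard error of 0.25 (limma adjusted p = 0.00195). Its receptors did not pass the test. Cxcr4 was 8.04 ± 1.14 CPM in Myc/NrasG12V and 4.92 ± 1.44 CPM in Myc/Akt1 (limma adjusted p = 0.0840), and with scaling factors from TMM, the median of ratios or the upper quartile it passed as higher in Myc/NrasG12V (adjusted p = 0.0233, 0.0229 and 0.0187). Cxcr4 also passed with DESeq2 and edgeR (their adjusted p = 0.00451 and 0.0292). The scavenging receptor Ackr3 was at 5.07 ± 3.32 and 3.94 ± 1.95 CPM. Dpp4, a surface peptidase that inactivates CXCL12 by trimming it, averaged 29.4 ± 14.6 and 167 ± 35.6 CPM in Myc/NrasG12V and Myc/Akt1, a 5.67-fold difference (limma adjusted p = 8.56e-04). Markers of cells that usually make CXCL12 were measured beside it. Of 10 tested markers of stellate cells and fibroblasts, 2 were higher in Myc/NrasG12V and 0 lower, with sums of 524 to 633 and 386 to 624 CPM in Myc/NrasG12V and Myc/Akt1. Of 10 endothelial markers, 5 were higher and 1 lower in Myc/NrasG12V, with sums of 274 to 358 and 229 to 269.6 CPM. The part of these cells in the Cxcl12 difference was not tested.

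The make-up of chemokine reads differed accordingly, while their sum overlapped between groups. The CPM summed over the 43 chemokine genes was 419, 359 and 284 in Myc/NrasG12V and 281, 303 and 293 in Myc/Akt1, so Myc/NrasG12V replicate 3 fell within the range of the other group. Cxcl1 and Cxcl17 held 28.3 ± 12.1% and 17.3 ± 5.11% of that sum in Myc/NrasG12V, against 7.19 ± 1.14% and 0%. Cxcl12 held 13.8 ± 1.44% in Myc/NrasG12V and 49.6 ± 11.3% in Myc/Akt1. These shares rest on CPM and favour long transcripts.

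**Figure D3:**
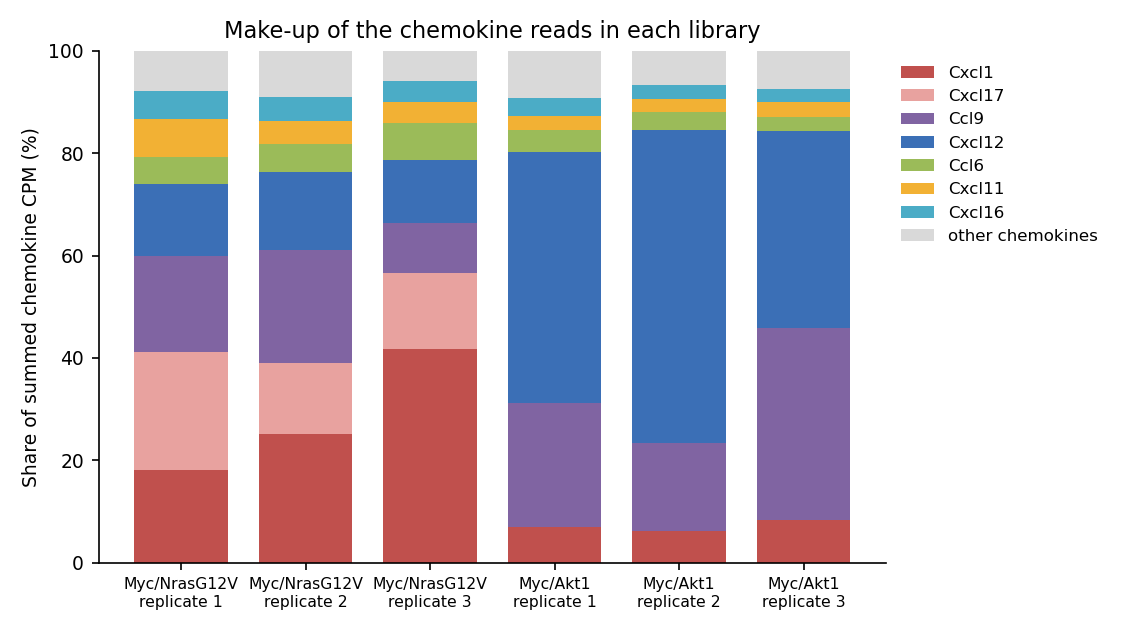
Share of each chemokine in the CPM summed over the 43 chemokine genes, one bar per library. The y axis is percent of that sum; Cxcl1 ranges from 18.1% to 41.7% in Myc/NrasG12V and from 6.11% to 8.39% in Myc/Akt1, and Cxcl12 from 12.3% to 15.1% and from 38.5% to 61.2%.

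CC chemokines that act on monocytes and macrophages split. Ccl2, the main ligand of the monocyte receptor CCR2 (ENSMUSG00000035385, chromosome 11, 82035571 to 82037453), was at 2.67, 1.56 and 0.559 CPM in Myc/NrasG12V and at 7.04, 5.45 and 6.998 CPM in Myc/Akt1. There was no overlap, and the mean was 4.07-fold higher in Myc/Akt1 (log2 difference -1.61, standard error 0.32, limma adjusted p = 0.00497), or 6.13-fold without Myc/NrasG12V replicate 1. Its neighbour Ccl7, with the same receptor, had 14 reads over Myc/NrasG12V and 72 over Myc/Akt1, too few to be tested, and again every Myc/Akt1 library (1.91, 0.610 and 0.454 CPM) lay above every Myc/NrasG12V library (0.191, 0.367 and 0.112 CPM). Ccr2 itself was at 3.94 ± 0.797 and 3.58 ± 0.868 CPM, a log2 difference of 0.11 with a 95% interval from -0.45 to 0.67 (limma adjusted p = 0.743).

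Ccl8, further along the same gene cluster (ENSMUSG00000009185, chromosome 11, 82115185 to 82116799), had the opposite direction. It was at 8.17, 4.68 and 4.75 CPM in Myc/NrasG12V and at 0.636, 0.179 and 0.0909 CPM in Myc/Akt1, with every Myc/NrasG12V library far above. The mean was 19.4-fold higher in Myc/NrasG12V (log2 difference 2.38, standard error 0.27, limma adjusted p = 3.60e-04), or 43.4-fold without Myc/Akt1 replicate 1. The Myc/Akt1 group held 22 reads. Mouse CCL8 signals through CCR8, and Ccr8 was at 0 to 0.0918 CPM in Myc/NrasG12V and had 0 reads in Myc/Akt1. Ccl11 and Ccl12, which lie between Ccl2 and Ccl8, had 7 and 14 reads over Myc/NrasG12V and 25 and 15 over Myc/Akt1, and neither was tested.

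The second CC cluster on chromosome 11 encodes chemokines of myeloid cells, several of which bind CCR1. Ccl6, a chemokine made constitutively by myeloid cells of rodents (ENSMUSG00000018927, chromosome 11, 83587882 to 83593087), was at 22.1, 20.2 and 20.5 CPM in Myc/NrasG12V and at 11.7, 10.3 and 7.998 CPM in Myc/Akt1. No library of one group reached the other, and the spread within each was narrow. Ccl6 was 2.10-fold higher (log2 difference 1.01, standard error 0.21, limma adjusted p = 0.00566). Ccl9, its neighbour and paralog, was expressed strongly everywhere, at 78.3, 79.7 and 27.6 CPM against 67.8, 52.6 and 110.0 CPM, and missed the threshold (limma adjusted p = 0.498). The 95% interval of its log2 difference ran from -1.35 to 0.58 around -0.39, and without Myc/NrasG12V replicate 3 the sign turned, to 0.11. Ccl3 and Ccl4, inflammatory chemokines made by activated macrophages, were at or below 1.05 CPM in every library, with log2 differences of 0.05 (95% interval -0.44 to 0.54) and -0.01 (-0.42 to 0.40) on the log2(CPM + 1) scale. Ccr1, a receptor of monocytes and neutrophils, was at 3.16 ± 2.04 and 1.35 ± 0.819 CPM (limma adjusted p = 0.154, and 0.0472 with DESeq2).

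Ccl24, an eosinophil attractant known to be made by macrophages, was at 2.39, 2.34 and 1.01 CPM in Myc/NrasG12V against 0.679, 0.610 and 0.454 CPM. The mean was 3.29-fold higher (limma adjusted p = 0.0239), and the call ended when any 1 library other than Myc/NrasG12V replicate 3 was left out (adjusted p from 0.0597 to 0.0737). Its receptor gene Ccr3 had the opposite direction, with 0.241 ± 0.135 and 1.37 ± 0.359 CPM (limma adjusted p = 0.00616). Macrophage, Kupffer cell and monocyte markers were measured beside these genes. Of 15 tested, 5 were higher in Myc/NrasG12V and 0 lower, with sums of 417 to 750.2 CPM and 279.9 to 365 CPM, and their part in the differences of Ccl8, Ccl6 and Ccl24 was not tested.

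**Figure D4:**
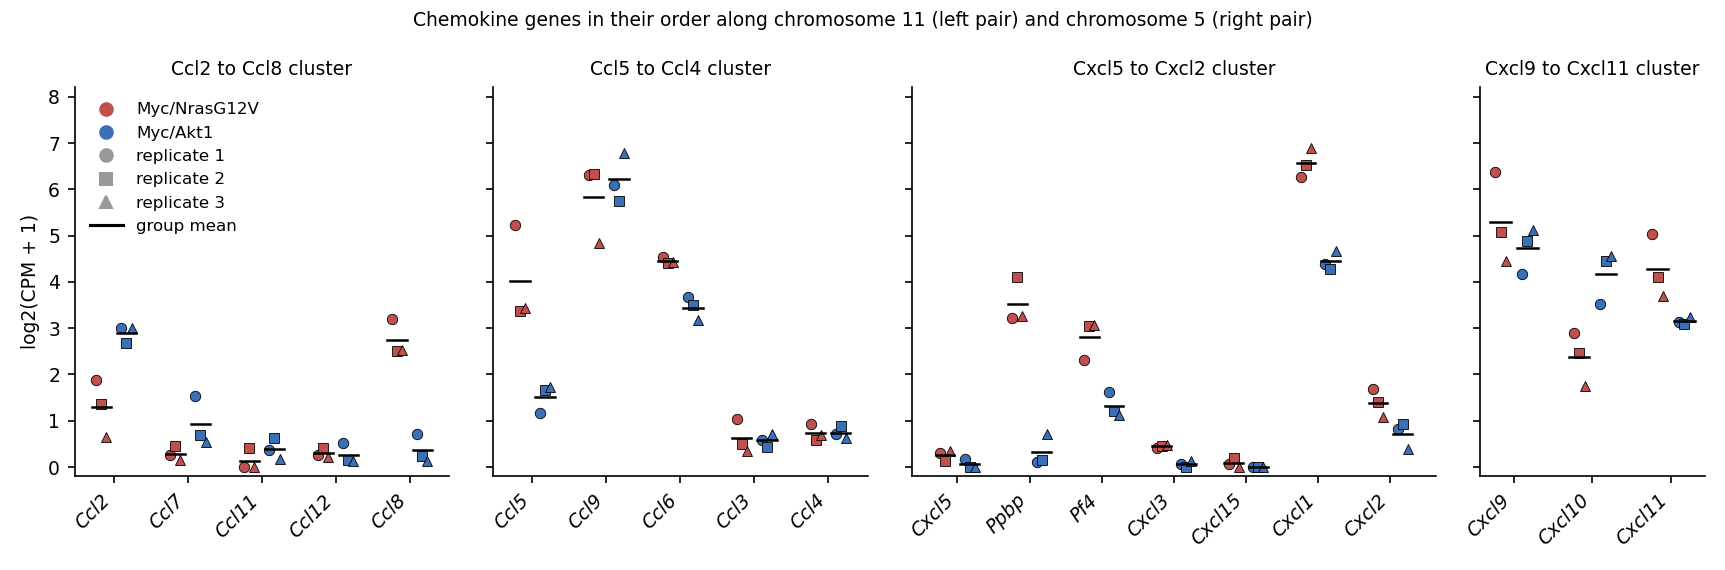
Chemokine genes of 4 clusters in their order along the chromosome, with the genes between them left out. The y axes are log2(CPM + 1), points are libraries with the shape giving the replicate, and black lines are group means; Ccl2 and Ccl8, of one cluster, differ in opposite directions, as do Cxcl10 and Cxcl11.

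Cxcl16 and Cxcl11, which bind receptors of lymphocytes, were higher in Myc/NrasG12V. Cxcl16, a membrane-bound chemokine that binds CXCR6 (ENSMUSG00000018920, chromosome 11, 70453983 to 70459984), was at 22.4, 16.9 and 11.4 CPM against 10.2, 8.22 and 7.36 CPM. The lowest Myc/NrasG12V library was only slightly above the highest Myc/Akt1 library. It was 1.97-fold higher (limma adjusted p = 0.0347), a call that ended when any 1 library other than Myc/NrasG12V replicate 3 was left out (adjusted p from 0.0585 to 0.123). Its exons share 552 bases with Zmynd15 on the opposite strand, and the strand setting of the counting is not given in the sources used here. Cxcr6 was at 1.52 ± 1.31 and 0.333 ± 0.151 CPM (limma adjusted p = 0.10), and it passed as higher in Myc/NrasG12V with DESeq2, with edgeR and without Myc/NrasG12V replicate 3 (adjusted p = 0.00696, 0.0361 and 0.0112).

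Cxcl11, a ligand of CXCR3, a chemokine receptor of T cells, whose C57BL/6 allele is known to carry a frameshift (ENSMUSG00000060183, chromosome 5, 92359544 to 92365485), was at 31.7, 16.1 and 12.0 CPM in Myc/NrasG12V and at 7.72, 7.57 and 8.41 CPM in Myc/Akt1. It was 2.52-fold higher in Myc/NrasG12V (log2 difference 1.12, standard error 0.33, limma adjusted p = 0.0251). The call ended without Myc/NrasG12V replicate 1, the highest library, and whenever a Myc/Akt1 library was dropped (adjusted p from 0.0532 to 0.0744). The adjacent CXCR3 ligand gene Cxcl10, outside the rule, was 4.04-fold higher in Myc/Akt1 (limma adjusted p = 0.00617), Cxcl9 did not pass (limma adjusted p = 0.349), and Ccl5 was 9.75-fold higher in Myc/NrasG12V, or 5.08-fold without Myc/NrasG12V replicate 1. Of 13 tested T and NK cell markers, 7 were higher in Myc/NrasG12V and 1 lower, with sums of 19.9 to 46.7 CPM and 8.44 to 12.4 CPM. The highest of those sums and the highest Cxcl11 and Cxcl16 were all in Myc/NrasG12V replicate 1, and the part of these cells was not tested.

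The cluster that holds Cxcl1 also holds 2 platelet chemokine genes outside the rule. Ppbp averaged 11.04 ± 4.48 CPM in Myc/NrasG12V and 0.276 ± 0.312 CPM in Myc/Akt1, 39.97-fold higher (114.7-fold without Myc/Akt1 replicate 3), and Pf4 was 4.06-fold higher (limma adjusted p = 1.78e-04 and 0.00365). All 6 tested platelet and megakaryocyte markers, a list that includes both, were higher in Myc/NrasG12V, with sums of 27.2 to 42.5 CPM and 4.45 to 7.27 CPM. Cxcl15, in the same cluster, had 4 reads over Myc/NrasG12V and 0 over Myc/Akt1.

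Interleukin 1 beta, which is made by activated myeloid cells and needs cleavage by caspase 1, was higher in Myc/NrasG12V. Il1b (ENSMUSG00000027398, chromosome 2, 129364570 to 129371139) was at 5.20, 5.37 and 3.64 CPM against 0.382, 0.790 and 0.682 CPM, with no overlap. The mean was 7.67-fold higher (log2 difference 1.82, standard error 0.22, limma adjusted p = 5.19e-04). The neutrophil and macrophage marker sums given above were also higher in all 3 Myc/NrasG12V libraries than in any Myc/Akt1 library. Within Myc/NrasG12V, however, Il1b was lowest in replicate 3, the library with the highest neutrophil sum. The part of these cells in the Il1b difference was not tested. Il1a, which binds the same receptor, was at 4.97, 4.50 and 2.96 CPM against 2.93, 2.69 and 3.36 CPM and did not pass (log2 difference 0.35, 95% interval -0.19 to 0.88, limma adjusted p = 0.274). In Myc/Akt1 there was thus more Il1a than Il1b per kilobase of exon (1.52 ± 0.173 against 0.324 ± 0.111 CPM per kilobase), while in Myc/NrasG12V the 2 were at 2.10 ± 0.531 and 2.48 ± 0.502 CPM per kilobase.

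The antagonist of interleukin 1 was higher in Myc/NrasG12V too. Il1rn, which encodes the receptor antagonist, was at 126, 96.0 and 56.1 CPM in Myc/NrasG12V and at 3.86, 4.77 and 5.41 CPM in Myc/Akt1, or 19.8-fold higher (limma adjusted p = 7.13e-05). Per kilobase of exon its level in Myc/NrasG12V, 16.7 ± 6.30 CPM per kilobase, lay above that of Il1b in the same libraries. The signalling receptor gene Il1r1 was 2.51-fold higher (limma adjusted p = 0.00108). The decoy receptor gene Il1r2 was at 1.05, 4.36 and 7.44 CPM against 0.0424, 0.215 and 0.364 CPM, 20.7-fold higher (limma adjusted p = 0.0104), or 13.1-fold without Myc/NrasG12V replicate 3 and 33.2-fold without Myc/Akt1 replicate 3. Il1rap, the coreceptor needed for signalling, was 2.26-fold higher in Myc/Akt1, and the adaptors Irak2 and Myd88 were also higher there. Of 13 tested genes of interleukin 1 family receptors, inhibitors and adaptors, 3 were thus higher and 3 lower in Myc/NrasG12V. Over all genes tested, the shares were 10.0% and 29.5%.

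Il18 and Il33, the other members of the family, did not pass. Il18, which caspase 1 also activates, was at 6.59, 4.04 and 3.08 CPM in Myc/NrasG12V and at 8.61, 6.35 and 12.7 CPM in Myc/Akt1 (log2 difference -0.88, 95% interval -1.61 to -0.14, limma adjusted p = 0.0586), and passed without Myc/NrasG12V replicate 1 (adjusted p = 0.0357). Il33, a nuclear alarm cytokine released by damaged cells, was at 13.1, 10.4 and 2.80 CPM against 6.45, 4.45 and 7.41 CPM. Myc/NrasG12V replicate 3 was the lowest of all 6 libraries, and without it Il33 passed as higher in Myc/NrasG12V (adjusted p = 0.0285; 0.664 with it). The same library was lowest for Cx3cl1, the membrane-bound ligand of CX3CR1, at 5.68, 4.50 and 1.23 CPM against 3.31, 2.26 and 3.77 CPM (limma adjusted p = 0.870), and for Tgfb2.

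**Figure D5:**
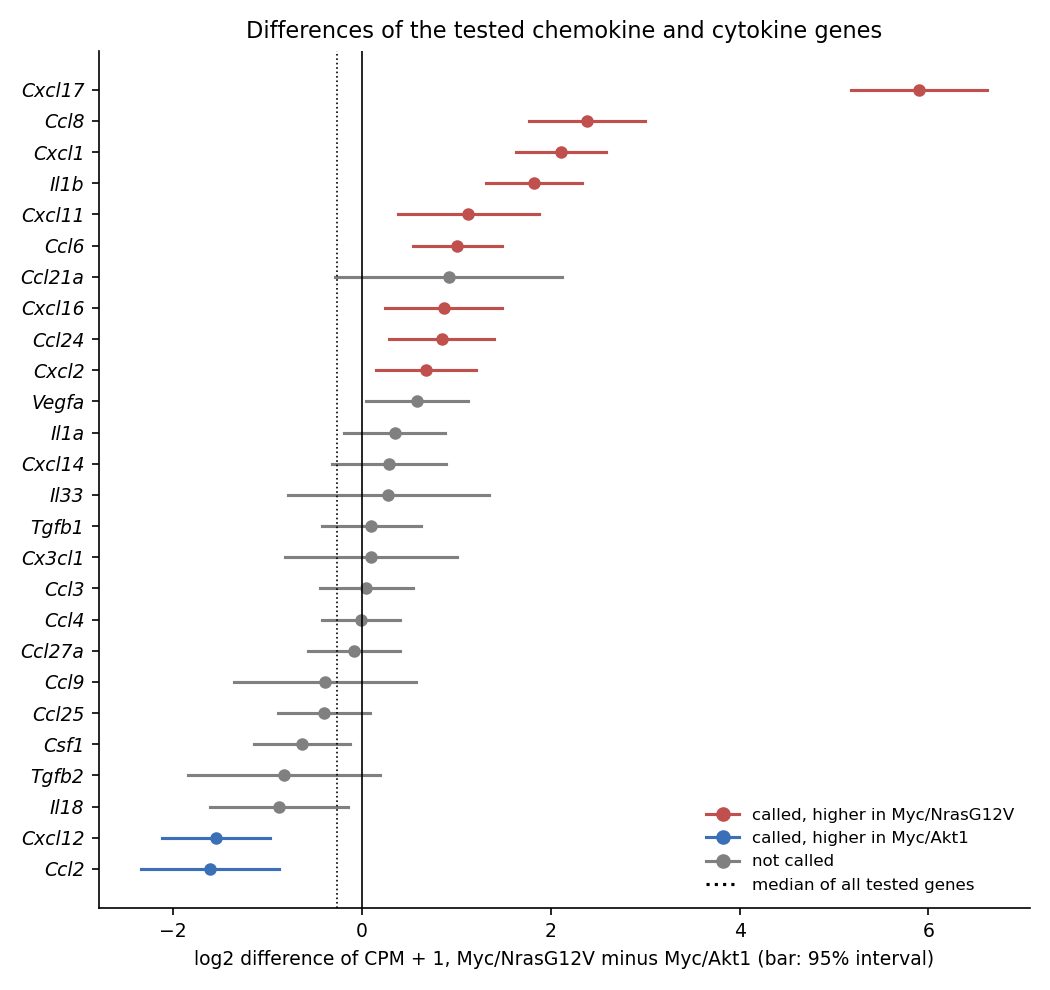
Log2 difference of CPM + 1 for the 26 tested genes, Myc/NrasG12V minus Myc/Akt1, with 95% intervals from limma. Colour marks genes called at an adjusted p under 0.05, and the dotted line is the median of all tested genes, -0.26.

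None of the growth factor cytokines passed the test as run on CPM, though Vegfa, Csf1 and Tgfb2 each passed in some alternatives. Vegfa, the main angiogenic factor, was one of the most abundant of the 55 genes, at 123, 177 and 159.6 CPM in Myc/NrasG12V and at 83.5, 87.2 and 139 CPM in Myc/Akt1, and the groups overlapped. Its log2 difference was 0.59 (95% interval 0.05 to 1.13, limma adjusted p = 0.0792) and became 0.90, 0.91 and 0.96 with factors from TMM, the median of ratios and the upper quartile, where it passed (adjusted p = 0.0229, 0.0232 and 0.0195). Vegfa also passed with DESeq2 and edgeR (their adjusted p = 0.00769 and 0.0306) and without Myc/Akt1 replicate 3 (limma adjusted p = 0.0182). Csf1, the growth factor of macrophages, was at 10.5, 13.3 and 8.95 CPM against 15.4, 16.4 and 20.3 CPM. The groups did not overlap, and its log2 difference was -0.63 (limma adjusted p = 0.0517). With the same 3 kinds of factor it was -0.34, -0.33 and -0.29 (adjusted p = 0.295, 0.308 and 0.372), and it passed in 3 other settings, a filter of 1 CPM, a pseudocount of 0.1 and without Myc/NrasG12V replicate 2 (adjusted p = 0.0471, 0.0481 and 0.0487). Its receptor gene Csf1r was at 48.4 ± 20.6 and 27.6 ± 7.48 CPM (limma adjusted p = 0.0884). Tgfb1, an immune suppressor and driver of fibrosis, was at 7.97, 8.31 and 7.16 CPM against 5.77, 7.25 and 8.91 CPM, a log2 difference of 0.10 with a 95% interval from -0.42 to 0.62. Tgfb2 was at 7.78, 3.44 and 1.62 CPM against 8.23, 4.56 and 10.0 CPM (log2 difference -0.82, 95% interval -1.84 to 0.19, limma adjusted p = 0.175). Without Myc/NrasG12V replicate 1 it passed as higher in Myc/Akt1 (log2 difference -1.28, adjusted p = 0.0384), and its fold went from 1.78 to 3.00.

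Several cytokines best known from acute inflammation were almost absent from both groups. Tnf had 14 reads over Myc/NrasG12V and 16 over Myc/Akt1, Il11 had 11 and 6, and Csf2 had 0 and 1. Of the 29 genes not tested, 11 had no read in any library, most of them copies of Ccl19, Ccl21 and Ccl27 genes, whose reads cannot be told apart from the first copy where sequences are alike. The other 18 untested genes had group means of at most 1.15 CPM, the highest being Cxcl13, which draws B cells into follicles, with 1.34, 1.88 and 0.224 CPM against 0.212, 0.179 and 0.409 CPM. Among tested genes of low level, Ccl21a was at 5.05 CPM in Myc/NrasG12V replicate 2 and at or below 0.669 CPM in the other 5 libraries (limma adjusted p = 0.198, and 0.0129 with DESeq2). Ccl25, Ccl27a and Cxcl14 had means between 0.910 and 4.31 CPM and log2 differences of -0.40, -0.08 and 0.28 (limma adjusted p = 0.167, 0.781 and 0.431). Ccl25 had 185 reads over Myc/NrasG12V and 316 over Myc/Akt1. Its exons share 204 bases with Elavl1 on the opposite strand, a gene with 8605 reads, so without a known strand setting its level is uncertain.

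Other genes of these pathways went both ways. Of 16 tested chemokine receptors, 1 was higher in Myc/NrasG12V, Cxcr2, and 1 lower, Ccr3, beside 10.0% and 29.5% of all genes tested. Both reached the level for testing only through the group where they were high, so these counts are a description. With a filter of 1 CPM in 3 libraries the receptor counts were 0 and 0, and with DESeq2 they were 6 and 1. Of 17 receptors for TNF, TGF-beta, IL-11, CSF and VEGF, 5 were higher and 2 lower. Besides Csf3r, Csf2rb2, a receptor subunit of the IL-3 family, was 6.32-fold higher, and Tgfbr2, the type II TGF-beta receptor, was 3.61-fold higher (limma adjusted p = 7.71e-04 and 9.31e-04). Of 18 genes of cytokine processing and release, 5 were higher and 5 lower, among them Furin, a protease that cleaves pro-TGF-beta, 2.35-fold higher in Myc/NrasG12V, and Nek7, a partner of the NLRP3 inflammasome, 2.71-fold higher in Myc/Akt1 (limma adjusted p = 7.17e-04 and 0.00151). Of 17 NF-kB subunits and feedback targets, 1 was higher and 1 lower. Nfkbiz, a nuclear cofactor of NF-kB, was 2.26-fold higher in Myc/NrasG12V, and Bcl3, another, was 2.80-fold higher in Myc/Akt1 (limma adjusted p = 0.00274 and 0.00226). Over these 5 lists, 15 genes were higher and 12 lower, and with the same 3 scaling factors 25, 25 and 26 were higher and 8, 7 and 7 lower. Markers of some other cell types differed as well. Hepatocyte markers (4 of 11 higher, 1 lower, median log2 difference 0.20) summed to 136729 to 170083 CPM in Myc/NrasG12V and 47896 to 60803 CPM in Myc/Akt1. Erythroid markers (5 of 7 higher, 0 lower, median 3.43) summed to 274 to 1697 and 47.9 to 95.7 CPM. B and plasma cell markers (0 of 6 higher, 1 lower) summed to 6.93 to 17.4 CPM in Myc/NrasG12V and 9.18 to 12.3 CPM in Myc/Akt1. Dendritic cell markers (0 of 6 higher, 1 lower) summed to 15.7 to 19.3 CPM in Myc/NrasG12V and 19.4 to 24.7 CPM in Myc/Akt1. Whether cell numbers or RNA per cell differed was not tested, nor was the part of these cells in the results. The median log2 differences of the 5 lists ran from -0.14 to 0.31, beside -0.26 over all genes tested.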

How the data were processed

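Libraries were poly(A)-selected, stranded and single-end, per the labels' protocols. Per the submitters' processing notes, the tools were edgeR 3.22.5, STAR 2.6.1c and Subread 1.6.3, with build GRCm38. Which annotation release and strand setting were used, and what was done with multi-mapped reads, is not given in the sources used here. The authors deposited 1 table per library in CPM; whole reads were recovered, since 100% of the values lay within 0.01 read of a whole number of reads.

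Genes passing filterByExpr of edgeR 4.0.16 (14365) were tested with limma 3.58.1 in R 4.3.3 (trend, two-sided, no covariate) on log2(CPM + 1), with differences taken as Myc/NrasG12V less Myc/Akt1. Folds are ratios of mean CPM. Coordinates and exon lengths came from GENCODE M21, of the named build, which held 96.2% of the identifiers and all 55 members. Named genes were members that were called or averaged 1 CPM or more, and of each list the 3 called genes of lowest adjusted p and the members' receptors; a few others were named after their values were seen. Members and lists were chosen with earlier results of these data known. With 3 against 3 samples an exact permutation test cannot give a p below 0.1. Alternatives were scaling factors, filters, pseudocounts, edgeR and DESeq2 1.42.0 on the recovered reads (edgeR called 2381 genes higher in Myc/NrasG12V and 2512 lower, of all tested), and fits with the replicate number as a block or with 1 library left out. The pipeline was also run on simulated data, where it recovered 2.5% of 1.5-fold, 12.3% of 2-fold and 85.7% of 4-fold changes. Of the calls made there, 10% were false. Far fewer genes were changed there (80, 57 and 63 at these folds) than the 5677 called here. This makes the simulated adjusted p stricter, so these shares do not carry over to the real comparison. A gene that did not pass is still not shown to be unchanged.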

Additional observations from a re-analysis of the deposited data

How the results depend on the processing

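Over 16 alternatives, 7 of the 11 called chemokine and cytokine genes, Cxcl17, Ccl8, Cxcl1, Il1b, Ccl6, Cxcl12 and Ccl2, kept their direction and their call, and none of the 11 changed direction. Among the 7, Cxcl17, Ccl8 and Il1b did not reach the level for testing in the Myc/Akt1 libraries alone. Leaving out 1 library gave 5 to 10 genes higher in Myc/NrasG12V and 2 to 4 higher in Myc/Akt1. With the replicate number as a block the counts were 9 and 2; same-numbered samples deviated together by correlations of -0.0812, 0.113 and 0.0848, and not every sample correlated best with its own number, so the numbers were not taken to pair the samples. For receptor, processing and NF-kB genes, 25 (TMM), 25 (median-of-ratios factors), 26 (upper-quartile factors), 27 (edgeR) and 31 (DESeq2) were higher in Myc/NrasG12V in place of 15, and 7 were lower with median-of-ratios or upper-quartile factors in place of 12; leaving out 1 library gave 13 to 21 and 8 to 12. These factors moved the median log2 difference of all genes from -0.26 to 0.005 (TMM), 0.009 (median of ratios) and 0.05 (upper quartile).

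Only genes that had not passed changed sign; the cause was not tested. Ccl27a was at 0.13 with TMM factors, 0.13 with median-of-ratios and 0.17 with upper-quartile ones, 0.18 with edgeR and 0.18 with DESeq2, and Ccl9 was at 0.034 with edgeR and 0.045 with DESeq2. Leaving out 1 library gave log2 differences that ranged for Ccl27a from -0.21 to 0.019, for Ccl9 from -0.64 to 0.11, for Cx3cl1 from -0.21 to 0.58, for Il33 from -0.086 to 0.86 and for Tgfb1 from -0.039 to 0.24. They ranged for Ccr2 from -0.036 to 0.26, for Ackr3 from -0.17 to 0.63 and for Myc from -0.18 to 0.30. Genes under about 1 CPM rest on few reads, which limits what the test can show.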
